A study of Mus musculus with 4 samples.

Results

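The sarcomere is the contractile unit of striated muscle, in which thin actin filaments anchored in the Z-disc slide past thick myosin filaments. Ttn encodes titin, the giant elastic filament that runs from the Z-disc to the M-band, and Neb encodes nebulin, which runs along the thin filament. Acta1 and Actc1 encode the skeletal and the cardiac α-actin, Actn2 and Actn3 the α-actinins that crosslink actin in the Z-disc, Mybpc1 and Mybpc2 the slow and the fast skeletal myosin-binding protein C, and Ankrd1 and Ankrd2 the muscle ankyrin repeat proteins, which bind the titin spring region and are known to respond to stretch and injury of muscle. These 10 genes were taken by symbol from the 23282 gene rows of the deposited tables, and each had a single row. Cardiac α-actin is the main actin of the heart and of developing skeletal muscle, whereas α-actinin-3 is restricted to fast fibres.

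Gastrocnemius muscle of CDF1 mice was sequenced from the 3′ ends of transcripts, in 1 library for each of 4 groups. The groups were healthy sedentary mice (normal control, E−T−), healthy mice with high-intensity treadmill running (normal exercise, E+T−), sedentary mice injected in the tail vein with CT26 murine colorectal cancer cells (cancer control, E−T+) and injected mice with the same running (cancer exercise, E+T+). All groups were labelled postnatal day 28, and the methods describe males only. The methods give 4 weeks as the age at purchase and take tissue at the end of the experiment. The sequenced muscle thus came from older mice than the label reads. The design text gives 10 mice per group. The study states that the gastrocnemius came from a representative mouse of each group, and the sample titles give no number of animals. No difference below has a replicate check, and no test of a condition was possible. The cancer cells were given into the circulation, not into the muscle that was sequenced.

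The values are normalized read counts on the scale of the deposited tables, and a fold change is the difference of the deposited log2 values, log2 of the count plus 1. A gene was called changed when it differed at least 2-fold and either library of the pair reached a normalized read count of 4. Intervals in brackets are 95% exact binomial (Clopper-Pearson) intervals from reads rebuilt from the deposited values, and they cover counting error only, not the differences between animals. Rebuilt totals ran from 10647465 reads in cancer control to 13226076 in normal exercise, and 3 reads, the upper limit that a count of 0 allows, were 2.27e-05% to 2.82e-05% of a library. Counts were not divided by transcript length, because 3′ reads do not scale with it, and levels of different genes are compared on this 3′ count scale only. In bulk muscle, fewer cells of a type and less RNA per cell cannot be told apart.

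Markers of muscle fibres were abundant in every library, with all 10 of 10 detected and 3.88% to 4.93% of the reads. With the tumor without exercise 4 of the 10 fell and 0 rose, or 40% against 45.1% of all genes. Their median log2 fold change was -0.82. Other lists differed between libraries as well. The summed normalized read count of 8 skin markers was 852 in cancer control, with all 8 detected, against 95.7 to 245 in the other libraries, where 4 or 5 of them had 0 reads. The 10 fibroblast and tendon markers summed to 100912 in normal control and to 38210 to 48116 elsewhere. The 8 red cell markers ran from 62819 in normal exercise to 656758 in cancer exercise. Of the 8 smooth muscle and pericyte markers, 0 rose and 4 fell with the tumor without exercise, or 50% against 45.1% of all genes, with a median log2 fold change of -0.80. Their sum, 17536 to 35315, was mostly Des (15435 to 33479), which muscle fibres also express. Their part in the results below was not tested. The 8 cardiac markers had a summed level of 215 to 648, and Nppb and Myl7 had 0 reads in all 4 libraries.

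Ankrd1, Ankrd2 and Actc1 had the widest range of the 10 genes, at 5.67, 4.73 and 4.46 on the log2 scale, and Acta1, at 1.36, is the most abundant. Their promoters are shown as the 250 bases before the RefSeq start site (GRCm38.p6, read 5′ to 3′ on the strand of the gene). Capitals mark matches on either strand to CATTCC (the M-CAT element, GGAATG on the other strand), to TATAAA and to the CArG box. The windows are Ankrd1 at chr19:36119845-36120094 on the minus strand, Ankrd2 at chr19:42035777-42036026 on the plus strand, Acta1 at chr8:123894776-123895025 on the minus strand and Actc1 at chr2:114052876-114053125 on the minus strand.
Ankrd1: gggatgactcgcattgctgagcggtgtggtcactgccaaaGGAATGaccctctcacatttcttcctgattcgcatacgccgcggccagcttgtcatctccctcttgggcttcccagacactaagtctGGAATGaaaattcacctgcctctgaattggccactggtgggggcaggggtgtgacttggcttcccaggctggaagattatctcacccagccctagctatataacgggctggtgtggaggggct
Ankrd2: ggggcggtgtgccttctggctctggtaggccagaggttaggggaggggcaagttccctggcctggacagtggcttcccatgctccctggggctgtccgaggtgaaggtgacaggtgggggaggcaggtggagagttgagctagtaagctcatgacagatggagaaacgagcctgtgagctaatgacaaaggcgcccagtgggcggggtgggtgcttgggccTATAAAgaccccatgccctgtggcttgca
Acta1: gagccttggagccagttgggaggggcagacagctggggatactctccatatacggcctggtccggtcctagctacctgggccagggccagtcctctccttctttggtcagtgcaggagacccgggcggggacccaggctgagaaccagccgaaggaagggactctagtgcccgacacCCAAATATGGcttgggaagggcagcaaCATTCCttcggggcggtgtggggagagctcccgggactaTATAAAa
Actc1: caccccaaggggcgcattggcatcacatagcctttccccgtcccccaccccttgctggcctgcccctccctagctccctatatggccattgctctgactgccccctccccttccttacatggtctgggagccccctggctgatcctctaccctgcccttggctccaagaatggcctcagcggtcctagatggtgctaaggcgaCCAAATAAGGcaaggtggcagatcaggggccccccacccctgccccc

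The Ankrd1 window held 2 matches to the M-CAT element, at -210 and -123 from the start site, and the Ankrd2 window held none. Both actin windows held a CArG box, at -73 in Acta1 and at -47 in Actc1. The Ankrd1 and Actc1 windows lie inside the gene spans given below, which come from other gene models. Positions thus hold for the RefSeq start site only. Promoter windows were found for 8 of the 10 genes, not for Neb and Actn3, and the search took in the 50 bases after the start as well. In these windows of 300 bases, 4 of 8 genes had an M-CAT match against 14.7% of 32851 promoters, 2 of 8 a CArG box against 1.63%, 3 of 8 TATAAA against 13.6% and 1 of 8, Ttn, a MEF2 site against 3.19%. An E box (CANNTG) was present in 8 of 8 and in 72.3% of all promoters. No matches to different motifs overlapped in these genes. These are matches of letters, not sites shown to be bound.

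Ankrd1 and Ankrd2 were lowest in normal control, higher in normal exercise and highest in both libraries with a tumor. Ankrd1 (chr19:36111961-36120099, minus strand) encodes the cardiac ankyrin repeat protein, which is low in resting skeletal muscle. Its normalized read count was 102 (82.7 to 125) in normal control against 352 (320 to 387) with exercise alone, 5249 (5103 to 5398) with the tumor alone and 3928 (3801 to 4058) with both. No interval of the 4 libraries overlapped another. Ankrd2 (chr19:42036000-42045110, plus strand) encodes the ankyrin repeat protein found mostly in slow fibres. Its normalized read count was 820 in normal control against 1860 with exercise alone, 19810 with the tumor alone and 21753 with both, again without overlap of the counting intervals. By reads, Ankrd2 moved from rank 2045 among all genes in normal control to rank 60 in cancer control and rank 55 in cancer exercise.

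**Figure D1:**
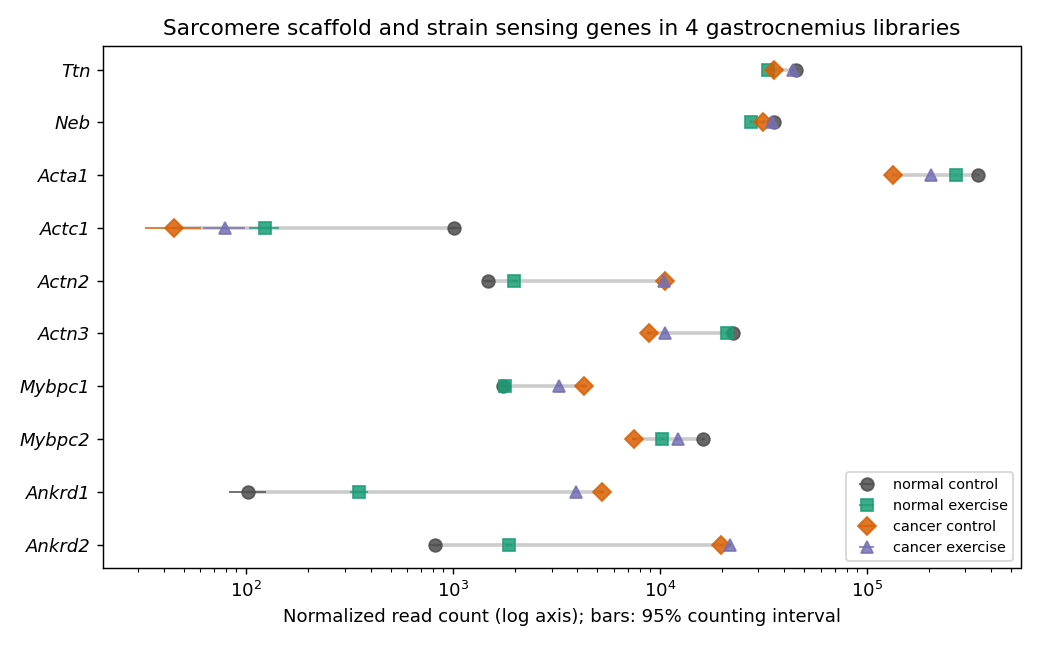
Normalized read count of each of the 10 genes (log axis) in the 4 gastrocnemius libraries, 1 library per group, with 95% counting intervals as bars. Ankrd1 spans 102 to 5249 and Ankrd2 820 to 21753, both with the normal control library lowest, whereas the Ttn points lie between 33247 and 45702.

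The tumor without exercise was the comparison with the largest changes in both ankyrin genes. Ankrd1 rose 50.9-fold, a log2 fold change of 5.67 (5.39 to 5.99), and ranked 50 from the top of 14818 genes. Ankrd2 rose 24.1-fold, by 4.59 (4.49 to 4.70), and ranked 159. In exercised mice the tumor was accompanied by an 11.1-fold rise of Ankrd1, a log2 fold change of 3.47 (3.33 to 3.62), and by an 11.7-fold rise of Ankrd2, of 3.55 (3.48 to 3.61). Exercise in healthy mice gave smaller rises, of 1.78 (1.47 to 2.12) for Ankrd1 and 1.18 (1.06 to 1.30) for Ankrd2 on the log2 scale. In tumor-bearing mice neither gene differed 2-fold with exercise. There the log2 fold change was -0.42 (-0.48 to -0.36) for Ankrd1 and 0.14 (0.11 to 0.16) for Ankrd2. Comparisons that share a library are not independent of each other, and each library entered 2 of the 4.

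Within a library the ratio of Ankrd1 to Ankrd2 reads does not depend on the scaling between libraries. It was 0.125 (0.0996 to 0.154) in normal control against 0.190 (0.171 to 0.210) with exercise alone, 0.265 (0.257 to 0.273) with the tumor alone and 0.181 (0.174 to 0.187) with both. Ankrd1 was thus the rarer gene in every library, and its ratio was highest in cancer control. The ratios in normal exercise and cancer exercise overlapped in their intervals. The coding sequences of both genes were 57.9% identical and the last 500 bases of their principal transcripts shared no run longer than 8 bases.

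Genes with a pattern like that of Ankrd1, Ankrd2 and Actc1, the 3 genes with the widest range, were looked up among 12054 genes by the distance of centred log2 values over the 4 libraries. Nearest to Ankrd1 was Mustn1, a small nuclear protein of the musculoskeletal system, at a distance of 0.51, with normalized read counts of 591, 2115, 21693 and 25851 in the same order of libraries. The coat colour gene a followed at 0.70, on counts from 0.0432 to 100, and then Ankrd2 at 0.76. Nearest to Ankrd2 were Myc at 0.30, Inhbb at 0.38 and Egln3 at 0.55, of which Myc rested on counts of 1.11 to 44.3. Nearest to Actc1 were Glb1l2 at 0.49, Gm6307 at 0.50 and 8430426J06Rik at 0.70. The distance over 4 libraries is a description.

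Actc1 was high in normal control and low in the other libraries, with its order of libraries the reverse of that of Ankrd1. Actc1 (chr2:114047282-114053548, minus strand) had a normalized read count of 1013 (950 to 1080) in normal control against 123 (104 to 144) with exercise alone, 45.0 (32.4 to 60.8) with the tumor alone and 79.1 (62.0 to 99.4) with both. These rest on 953, 152, 42 and 73 reads. The normal control library stands apart, and the 2 tumor libraries are within 1.74-fold of each other, with the interval of cancer control just below that of cancer exercise. Actc1 fell 8.17-fold with exercise in healthy mice, a log2 fold change of -3.03 (-3.30 to -2.79), and 22.0-fold with the tumor without exercise, of -4.46 (-4.98 to -4.05). Both falls are taken against the same normal control library. Actc1 is known to be expressed in regenerating or denervated muscle. The 10 markers of this state had summed counts of 1854, 1504, 1704 and 1957 in the same order of libraries, with Myh8 the largest part of each sum. With the tumor without exercise 4 of 9 tested markers rose 2-fold and 2 fell, or 66.7% against 45.1% of all genes. With exercise in healthy mice 1 of 8 rose and 0 fell, or 12.5% against 21.5%. Their part was not tested. With exercise in tumor-bearing mice the log2 fold change of Actc1 was 0.80 (0.25 to 1.4), and with the tumor in exercised mice it was -0.63 (-1.06 to -0.23), both under 2-fold.

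Acta1 was the most abundant of the 10 genes in every library, and it was lower with the tumor. Acta1 (chr8:123891769-123894751, minus strand) had normalized read counts of 347342 in normal control against 271387 with exercise alone, 134849 with the tumor alone and 204111 with both, which were 2.90%, 2.53%, 1.18% and 1.71% of the reads. It ranked 3, 3, 7 and 5 among all genes. The order of the libraries was the same as for Actc1, with a far smaller range. Acta1 fell 2.58-fold with the tumor without exercise, a log2 fold change of -1.36 (-1.37 to -1.36). The other 3 comparisons stayed under 2-fold, at -0.36 for exercise in healthy mice, 0.60 for exercise in tumor-bearing mice and -0.41 for the tumor in exercised mice.

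None of the 50-base words in the last 500 bases of any of the 10 genes occurred in a transcript of another gene. The Ttn transcript used had 100404 bases, of which 100401 were coding, so that it ends with the stop codon. Its last 500 bases are coding sequence, and an untranslated end of Ttn was not checked. On the opposite strand A530058N18Rik overlaps the end of Actc1 and had 0 reads in all 4 libraries. Gm20388 overlaps the end of Acta1 in the same way, and Gm44646 that of Mybpc2. Neither was among the deposited gene rows, so that their reads could not be checked. Strand was not stated for the counting.

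**Figure D2:**
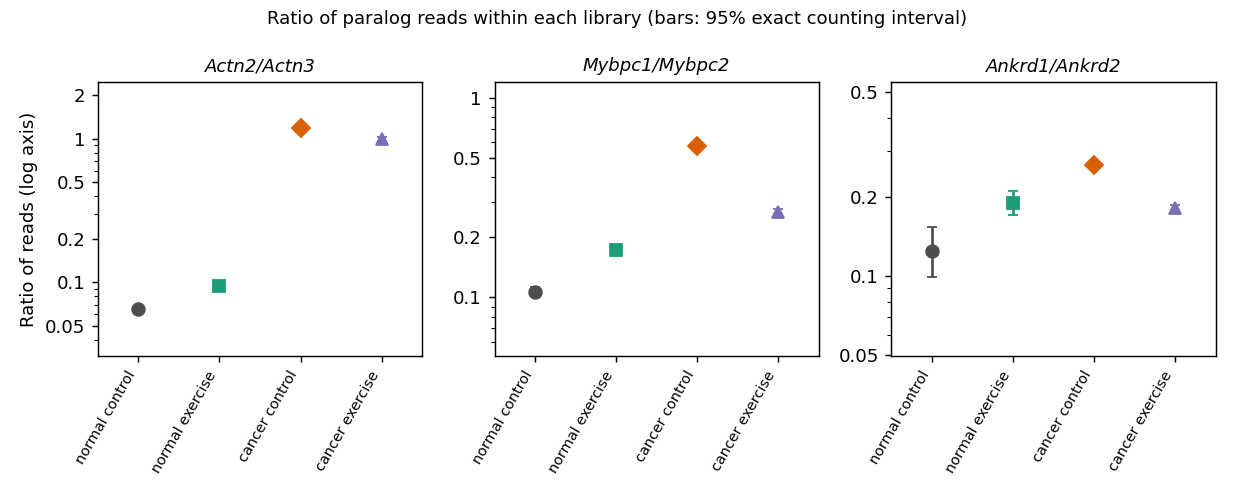
Ratio of reads within each library for the α-actinin, myosin-binding protein C and ankyrin repeat pairs (log axis), with 95% exact binomial intervals as bars, 1 library per group. Actn2/Actn3 is near 1 in both tumor libraries and at most 0.0941 in the libraries without a tumor.

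Among the α-actinins the balance moved from Actn3 to Actn2 in the tumor libraries. Actn2 (chr13:12269426-12340760, minus strand), expressed in all fibre types, had normalized read counts of 1473 (1396 to 1553) in normal control against 1981 (1904 to 2062) with exercise alone, 10549 (10342 to 10760) with the tumor alone and 10491 (10282 to 10701) with both. The 2 tumor libraries were alike within counting error and far above the others. Actn3 (chr19:4861216-4877909, minus strand) had counts of 22567, 21056, 8858 and 10579 in the same order, so that the tumor libraries were the low ones. The ratio of Actn2 to Actn3 reads was 0.0653 (0.0618 to 0.0689) in normal control against 0.0941 (0.0902 to 0.0981) with exercise alone, 1.19 (1.16 to 1.23) with the tumor alone and 0.992 (0.964 to 1.02) with both. Actn2 was thus 6.13% and 8.60% of the reads of the pair without a tumor and 54.4% and 49.8% with it.

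Actn2 rose 7.16-fold with the tumor without exercise, a log2 fold change of 2.84 (2.76 to 2.92), and 5.29-fold in exercised mice, of 2.40 (2.34 to 2.47). Actn3 fell 2.55-fold with the tumor without exercise, a log2 fold change of -1.35 (-1.39 to -1.31). In exercised mice its log2 fold change was -0.99 (-1.03 to -0.96), 1.99-fold and just under the threshold, and total count scaling took it past 2-fold, to -1.15. With exercise in healthy mice Actn2 had 0.43 (0.33 to 0.52) and Actn3 had -0.10 (-0.13 to -0.07), the latter turning to 0.06 under total count scaling. With exercise in tumor-bearing mice these were -0.01 (-0.05 to 0.03) and 0.26 (0.21 to 0.30). The interval of Actn2 included 0. Coding sequences of this pair were 75% identical, and the last 500 bases shared no run over 19 bases.

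The myosin-binding proteins C moved in opposite directions with the tumor without exercise. Mybpc1 (chr10:88518279-88605152, minus strand) had normalized read counts of 1744 in normal control against 1781 with exercise alone, 4326 with the tumor alone and 3251 with both. Mybpc2 (chr7:44501699-44524656, minus strand) had 16236, 10311, 7516 and 12194 in the same order. The libraries without a tumor had like levels of Mybpc1, with overlapping intervals (1661 to 1831 and 1707 to 1857), while no intervals overlapped for Mybpc2. Mybpc1 rose 2.48-fold with the tumor without exercise, by 1.31 on the log2 scale (1.23 to 1.39), and Mybpc2 fell 2.16-fold, to a log2 fold change of -1.11 (-1.15 to -1.07). In exercised mice the tumor gave 0.87 (0.79 to 0.95) for Mybpc1 and 0.24 (0.20 to 0.28) for Mybpc2. With exercise in tumor-bearing mice the values were -0.41 and 0.70, and in healthy mice 0.03 (-0.06 to 0.12) and -0.65.

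The ratio of Mybpc1 to Mybpc2 reads was 0.107 (0.102 to 0.113) in normal control against 0.173 (0.165 to 0.181) with exercise alone, 0.575 (0.553 to 0.598) with the tumor alone and 0.267 (0.256 to 0.278) with both. Each library had a ratio of its own, with cancer control highest. Mybpc1 is the slow form and Actn2 is not restricted to a fibre type. Of the 10 slow fibre markers, 8 rose at least 2-fold with the tumor without exercise, or 80% against 45.1% of all genes, with a median log2 fold change of 1.87. Their summed count was 11505 in normal control against 19535 with exercise alone, 38116 with the tumor alone and 21964 with both. Of the 11 fast fibre markers 5 fell and 1 rose with the tumor without exercise, or 54.5% against 45.1%, with a median of -0.90. With the tumor in exercised mice the slow markers had a median of -0.00 with 1 of 10 past 2-fold, or 10% against 30.3% of all genes. Of the 11 fast markers 4 fell and 1 rose there, or 45.5%, with a median of -0.16. Actn2, Ankrd1 and Ankrd2 rose in both tumor comparisons. The part of fibre type in these values was not tested.

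The giant filament genes differed least. Ttn (chr2:76703980-76982547, minus strand) had normalized read counts of 45702 (45271 to 46135) in normal control against 33247 (32931 to 33575) with exercise alone, 35708 (35327 to 36093) with the tumor alone and 44237 (43805 to 44662) with both. Neb (chr2:52136647-52378474, minus strand) had 35609, 27611, 31563 and 34828 in the same order. Both genes were highest in normal control and lowest in normal exercise, and both differed less than 2-fold in all 4 comparisons. Log2 fold changes ran from -0.46 (-0.48 to -0.44), exercise in healthy mice, to 0.41 (0.39 to 0.43), the tumor in exercised mice, for Ttn, and from -0.37 to 0.33 in the same comparisons for Neb. Ttn and Neb are far longer than the other members, with 312 and 157 exons in their principal transcripts, and the libraries read only transcript ends.

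Counted together, the tumor without exercise changed 8 of the 10 genes, 4 higher (Actn2, Mybpc1, Ankrd1 and Ankrd2) and 4 lower (Acta1, Actc1, Actn3 and Mybpc2), where 45.1% of 14818 genes changed, 20.9% higher and 24.2% lower. Exercise in healthy mice changed 3 of 10, Ankrd1 and Ankrd2 higher and Actc1 lower, against 21.5% of 14518 genes, 9.44% higher and 12.1% lower. The tumor in exercised mice changed 3 of 10, Actn2, Ankrd1 and Ankrd2, all higher, against 30.3% of 14470 genes, 13.9% higher and 16.3% lower. Exercise in tumor-bearing mice changed 0 of 10 against 30.6% of 14491 genes, 15.6% higher and 15.1% lower, and Actc1 had the largest value among them. Under total count scaling the higher genes among all changed genes were 52.9% instead of 43.9% for exercise in healthy mice, and 37.8% instead of 46% for the tumor in exercised mice. The median log2 fold change of the 10 genes and of all genes was -0.26 and -0.04 for the tumor without exercise, -0.23 and -0.01 for exercise in healthy mice, 0.20 and 0.01 for exercise in tumor-bearing mice, and 0.37 and -0.03 for the tumor in exercised mice. The members together held 3.94% of all reads in normal control against 3.45% with exercise alone, 2.27% with the tumor alone and 2.89% with both. Without Acta1 their share was 0.917% to 1.18% in all libraries.

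**Figure D3:**
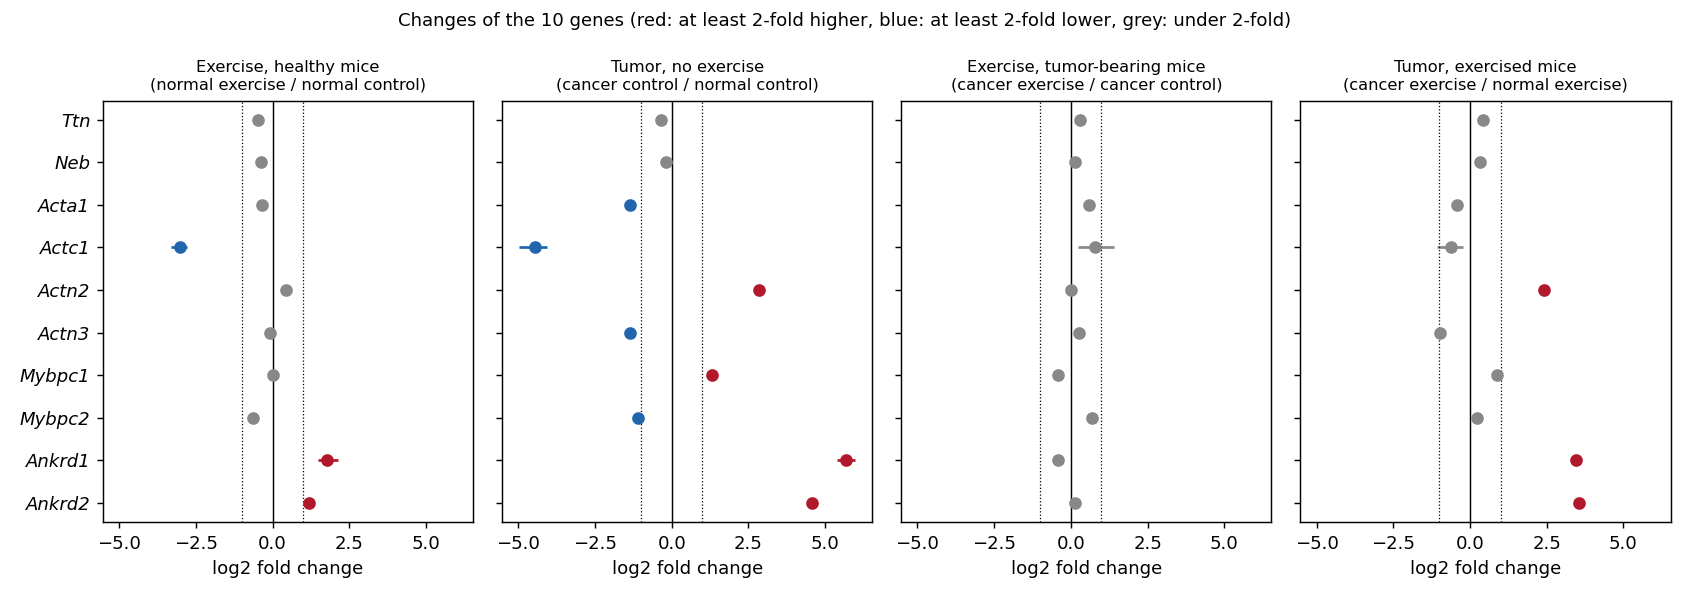
Log2 fold change of the 10 genes in the 4 comparisons, with 95% counting intervals as bars and dotted lines at 2-fold, red for at least 2-fold higher, blue for at least 2-fold lower and grey for less. Without exercise the tumor moved 8 of 10 genes past 2-fold, 4 in each direction, and exercise in tumor-bearing mice moved 0 of 10.

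Of 19 other strain sensing genes, 9 rose, 1 fell and the rest were under 2-fold with the tumor without exercise, with a median log2 fold change of 0.66. That is 52.6% of the list changed, against 45.1% of all genes (20.9% higher). In exercised mice 9 rose and 0 fell with the tumor, or 47.4% against 30.3% of all genes (13.9% higher), with a median of 0.73. On the log2 scale, which holds for the rises and falls given from here on, Mustn1 rose by 5.19 (5.08 to 5.32) and 3.61 in these comparisons. Trim63, a ubiquitin ligase bound to the titin M-band, rose by 3.98 (3.94 to 4.02) and 4.52. Trim55, its relative, fell by 2.63 with the tumor without exercise (-4.19 to -1.65), on 49 and 7 reads. Csrp3, the muscle LIM protein of the Z-disc, had normalized read counts of 405, 642, 5540 and 4823 in the same order of libraries, and Xirp1 had 247, 248, 3060 and 1725. Ankrd23, a further muscle ankyrin repeat gene, had 14341, 7003, 9409 and 10113, under 2-fold in both tumor comparisons and lower with exercise in healthy mice at -1.03. Csrp3, Xirp1, Ankrd23, and below Yap1, Wwtr1, Tead1, Actb, Actn1 and Actn4, were chosen after their values were seen.

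With exercise 5 of the 19 strain sensing genes fell and 1 rose in healthy mice, or 31.6% against 21.5% of all genes, with a median of -0.17. Mustn1 rose by 1.84 (1.71 to 1.97), while Fhl3, a LIM protein, fell by 1.87 and Trim63 fell by 1.70. In tumor-bearing mice 3 fell and 2 rose, or 26.3% against 30.6% of all genes, with a median of -0.20. Among them Trim63 and the autophagy receptor Sqstm1 both fell by 1.16. Trim55 rose by 2.77 and Tead4, a factor that binds the M-CAT element, by 1.68 (0.73 to 2.96) on 10 and 34 reads. With the tumor in exercised mice Tead4 rose by 3.93 (2.54 to 7.61), on 2 and 34 reads. The Yap1, Wwtr1 and Tead1 genes of the same pathway were under 2-fold in all 4 comparisons.

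**Figure D4:**
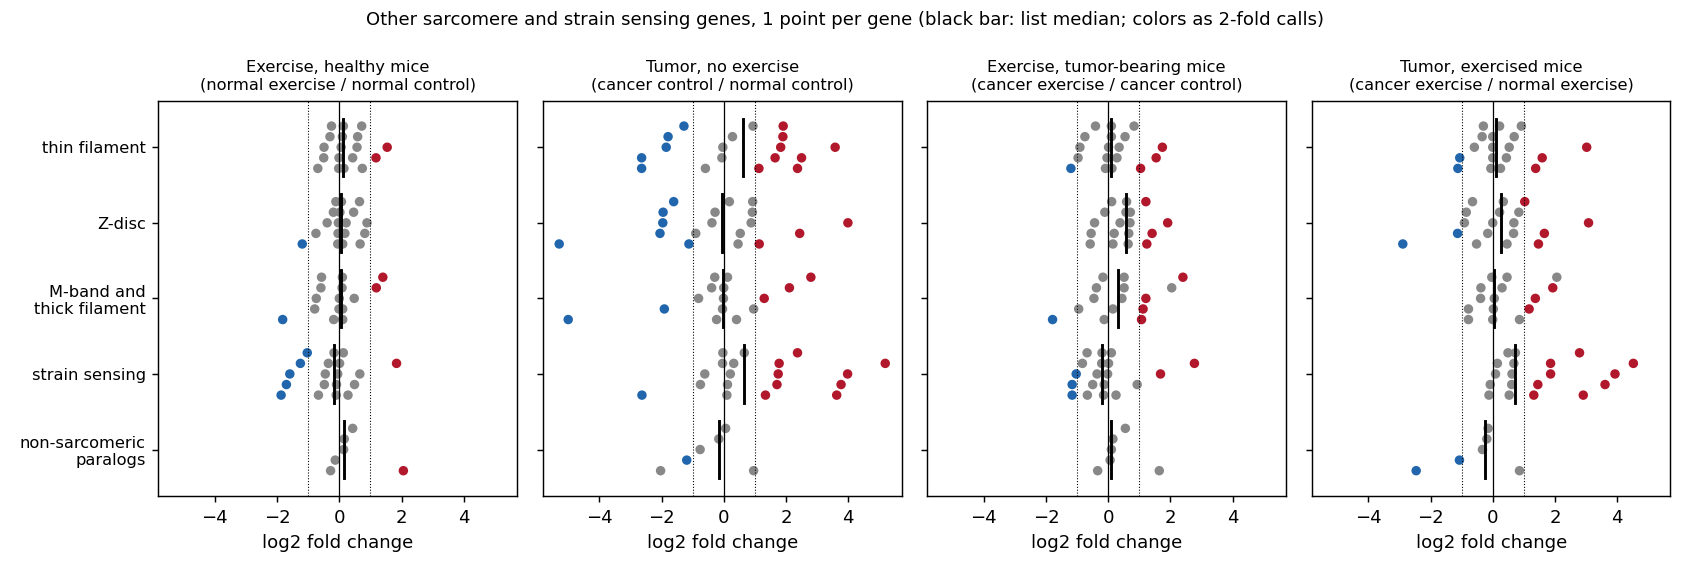
Log2 fold change of other thin filament, Z-disc, M-band and thick filament, strain sensing and non-sarcomeric paralog genes, 1 point per gene with reads, black bars for the list median over tested genes, dotted lines at 2-fold, red and blue for genes called higher and lower. The strain sensing genes have their medians above 0 in both tumor comparisons, at 0.66 and 0.73, and the Z-disc genes reach from -5.29 to 3.99 with the tumor without exercise.

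The thin filament list, 19 genes of which 18 were tested and Nebl had 0 reads in all 4 libraries, had 8 higher and 5 lower with the tumor without exercise, or 72.2% against 45.1% of all genes, and a median of 0.61. Lmod2, a leiomodin that lengthens thin filaments, rose by 3.58 (3.46 to 3.71), from a normalized read count of 607 to 7296, and Tnni1, slow troponin I, rose by 2.50. Tmod4, a tropomodulin that caps thin filaments, and Tpm1 each fell by 2.64. In exercised mice 3 were higher and 2 lower with the tumor, or 27.8% against 30.3% of all genes. They were led by Lmod2 at 3.02 and Klhl40, a stabilizer of nebulin, at 1.59, with Tpm1 at -1.12 and Tnnc2 at -1.06. With exercise 2 were higher in healthy mice, Tnni1 and Tnnc1, at 1.54 and 1.18, or 11.1% of the list against 21.5% of all genes. In tumor-bearing mice 3 were higher and 1 lower, or 22.2% against 30.6% of all genes, with Lmod3 at 1.74 and Tmod4 at 1.54 against Tnnc1 at -1.20.

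Of 18 Z-disc genes, 3 rose and 6 fell with the tumor without exercise, with a median of -0.05. This was 50% of the list, near the 45.1% of all genes. Flnc, filamin C, rose 15.9-fold, by 3.99 (3.87 to 4.11), and Myoz2, a slow fibre calsarcin, by 2.44. Myoz3 fell 39.2-fold, by 5.29 (-5.86 to -4.85), from a normalized read count of 1508 to 37.5, and Capn3, a protease bound to titin, fell by 2.05. In exercised mice 4 rose and 2 fell with the tumor, or 33.3% against 30.3% of all genes. Among them were Flnc at 3.08, Myoz2 at 1.66, Myoz3 at -2.89 and Palld at -1.13. Exercise in healthy mice lowered 1, Myoz3, by 1.19, or 5.56% of the list against 21.5% of all genes. Exercise in tumor-bearing mice raised 4, or 22.2% against 30.6%, among them Ldb3 by 1.91 (1.86 to 1.96) and Capn3 by 1.41. Ldb3, a binding partner of α-actinin, was thus low in cancer control alone, at 4553 against 17055 to 17595 elsewhere.

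Among 16 M-band and thick filament genes, 14 were tested in each comparison. With the tumor without exercise 3 rose and 2 fell, with a median of -0.03. This was 35.7% of the list, below the 45.1% of all genes. Myom3, a myomesin of slow and intermediate fibres, rose by 2.80 (2.47 to 3.19) and Myh7, slow myosin heavy chain, by 2.11. Mybph, myosin-binding protein H, fell 31.9-fold, a log2 fold change of -5.0 (-5.67 to -4.49), on 867 and 26 reads, and the methyltransferase gene Smyd1 fell by 1.91. In exercised mice 3 rose with the tumor, Myh1 at 1.93 and Myom2 at 1.37 among them, and 0 fell, or 21.4% against 30.3% of all genes. With exercise in healthy mice Myom3 and Myh7 rose, by 1.4 and 1.19, and Mybph fell by 1.82, or 21.4% against 21.5% of all genes. In tumor-bearing mice 4 rose and 1 fell, or 35.7% against 30.6% of all genes, with Mybph at 2.40, Myom2 at 1.21 and Myom3 at -1.79.

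The last list held 6 non-sarcomeric actin and α-actinin genes. Actb had normalized read counts of 9247, 8474, 9654 and 7627 in the same order of libraries, Actn1 had 330, 369, 643 and 670, and Actn4 had 1260, 1384, 1130 and 1215. All of these were under 2-fold in the 4 comparisons, but Actn1 was close to it with the tumor, at 0.96 without and 0.86 with exercise, and total count scaling put 2 genes of the list past 2-fold with the tumor without exercise instead of 1. Acta2, smooth muscle actin, fell by 1.19 and 1.07 with the tumor without and with exercise. Actg2 rose by 2.06 with exercise in healthy mice and fell by 2.46 with the tumor in exercised mice, on no more than 20 reads in any library.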

How the data were processed

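Per the labels and the methods, total RNA of gastrocnemius muscle was made into QuantSeq 3′ libraries, and the authors aligned reads with Bowtie2 (mm10), counted them per gene with bedtools and applied quantile normalization with edgeR. Versions, annotation, strand and the handling of reads with several matches were not given in the sources used here. What the authors deposited is, for 23282 gene rows, the log2 value of a normalized read count to which 1 was added. Groups came from the sample titles. Whole reads were rebuilt by inverting the quantile adjustment with 1 scaling factor per library and a negative binomial dispersion of 0.34, and 100% of the deposited log2 values were met within 0.0006. Above about 1202 reads, rebuilt reads are approximate. The inversion was tested on simulated data. Python 3.11.15, numpy 2.4.6, scipy 1.17.1 and pandas 2.3.3 were used, with gene models of GENCODE vM21 (GRCm38, the same assembly as mm10) and RefSeq promoters (GRCm38.p6). The members, lists and rules were chosen with earlier results of these data known. Named genes are the 10 members, per list and comparison up to 2 rises and 2 falls among changed genes that reached a normalized read count of 16, and the 3 nearest genes (mean count 16 or more) of the 3 members with the widest range. Alternatives were fold thresholds of 1.5 and 4, no minimum or one of 16, pseudocounts of 0.5 or 4, and scaling by median of ratios, total count or the trimmed mean of M values (TMM). Intervals used TMM.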

Additional observations from a re-analysis of the deposited data

Results flagged for a closer look

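None of the 10 genes changed at least 2-fold with exercise one way in healthy mice and the other way in tumor-bearing mice. None could, because 0 of 10 changed 2-fold with exercise in tumor-bearing mice. Their effects still differed, most for Actc1, at -3.03 in healthy and 0.80 in tumor-bearing mice, a difference of 3.83. Ankrd1 followed at 1.78 and -0.42, a difference of -2.19. Among the other named sarcomere and strain sensing genes 5 changed 2-fold in opposite directions. Each effect rests on 1 pair of libraries, so that the difference was not tested. Subtracting the healthy from the tumor-bearing log2 effect of exercise gave -2.37 for Tnnc1 (-1.20 and 1.18), 2.40 for Myoz3 (1.20 and -1.19), -3.19 for Myom3 (-1.79 and 1.4), 4.22 for Mybph (2.40 and -1.82) and 3.27 for Tead4 (1.68 and -1.59). Trim63, also named, fell in both comparisons, at -1.70 in healthy and -1.16 in tumor-bearing mice. Over all genes, 675 of 1307 changed 2-fold in both comparisons had opposite directions, or 51.6%. The named genes were picked by the size of their changes, so that their count cannot be set against this share. Tead4 rests on at most 34 reads in a library.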

How the results depend on the processing

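Of the log2 fold changes of single members recomputed under the scaling and pseudocount alternatives, 164 stayed within their counting interval and 36 moved beyond it. All 36 came from total count scaling, which gave most of them, or from median-of-ratios scaling. The TMM factors differed from the deposited scaling by at most 0.0123%, and the intervals used TMM, so that the TMM setting could not move a value. Most member values left their interval under total count scaling. In 40 changes of single members, 1 changed sign under the scaling and pseudocount alternatives (Actn3, exercise in healthy mice, -0.10 to 0.06 under total count scaling) and 1 changed side of the 2-fold threshold (Actn3, tumor in exercised mice, -0.99 to -1.15). Total count scaling moved the median of all genes by 0.16 for exercise in healthy mice and by -0.15 for the tumor in exercised mice, and by 0.07 or less in size for the others. The paralog ratios given, taken from the deposited counts instead, stayed within the intervals of the ratios from reads. A threshold of 4-fold left 1 member changed by exercise in healthy mice, 4 by the tumor without exercise, and 1437, 3178, 2058 and 1951 of all genes for exercise in healthy mice, the tumor without exercise, exercise in tumor-bearing mice and the tumor in exercised mice. A threshold of 1.5-fold gave 3 members for exercise in tumor-bearing mice and 6 for the tumor in exercised mice, and 5508, 7175 and 7107 of all genes for exercise in healthy mice, exercise in tumor-bearing mice and the tumor in exercised mice. A minimum of 16 left 1741 genes for exercise in healthy mice. Total count scaling gave 2 changed Z-disc genes for exercise in healthy mice, and 2 changed paralogs for the tumor without exercise. The other settings run kept the counts of members and of all genes within 1.5 times. The gene lists were recounted under total count scaling only, where their other counts stayed within 1.5 times. Depth limits Actc1 most, at 42 reads in cancer control. No paired analysis was possible because each group had 1 library.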
